A study of Mus musculus with 8 samples.

Results

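The genes described here are 30 regulators and marker genes of haematopoietic stem cells, among them transcription factors, chromatin regulators, membrane transporters and other genes known for expression in stem cells. They were chosen by name, as every non-control array probe whose gene name is one of the 30 symbols or an older or current symbol of the same gene, and all 30 were found, with 41 probes between them. All 30 are among the 23231 gene features tested in the series. RNA came from sorted bone marrow cells of mice aged 6 weeks on a mixed background, given as B6/CBA and others, with 2 arrays in each of 4 groups. The groups are Vav-Etv2 KSL cells, control KSL cells, Vav-Etv2 Gr cells and control Gr cells. KSL cells are c-Kit positive, Sca-1 positive and lineage negative, the marrow fraction that holds stem cells and multipotent progenitors, and Gr cells are the Gr-1+/Mac-1+ fraction, mostly granulocytes and the stages just before them. In Vav-Etv2 mice an Etv2 transgene is turned on by an iCre transgene under the Vav promoter, which is active across blood cells, so both sorted populations can carry the active transgene. The controls are labelled as controls with no genotype given. The labels do not state whether an array is 1 animal or a pool, and p-values here speak only for the spread from array to array. That spread is estimated for each gene over all 4 groups together, so the statistics of KSL comparisons also carry the spread between Gr arrays. Between KSL arrays the spread may be technical. In Gr cells the replicates differed in sex-linked genes, as given below, so they came from different animals.

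Blood stem cells are kept by a small set of transcription factors that bind DNA together. Tal1 or Lyl1, with an E protein partner, is joined through Lmo2 and Ldb1 to a GATA factor, often at sites shared with Runx1 and the ETS proteins Fli1 and Erg. Around this core, self-renewal depends on chromatin regulators such as Bmi1 and on factors such as Mecom, Prdm16 and Hlf, while efflux pumps such as Abcg2 and surface-linked genes such as Pdzk1ip1 mark the same cells. Etv2 is an ETS factor known from the embryo, where it acts above Tal1 and Lmo2 in blood and vessel precursors. How these genes stood in the presence of the transgene, and how they differ between stem cell enriched cells and granulocytes, are the comparisons the 4 groups allow.

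The promoters of 4 members, picked by hand, are shown as examples, and whether their motifs bear on any difference was not tested. Lyl1 and Hlf both hold the ETS core letters CCGGAA, a kind of site that ETS factors can bind. Their signals in Vav-Etv2 KSL cells lay on opposite sides of the controls. Tal1 and Pdzk1ip1 are neighbours on chromosome 4 and both had lower signals in Vav-Etv2 KSL cells. None of these differences passed the threshold used below. The sequences are RefSeq windows of 250 bases before to 50 bases after the start site on build GRCm38.p6, read 5′ to 3′ on the gene's strand, with the searched motif in capitals. They lie at chr8:84701207-84701506 (plus strand) for Lyl1, chr11:90390868-90391167 (minus strand) for Hlf, chr4:115056176-115056475 (plus strand) for the upstream start site of Tal1 and chr4:115088458-115088757 (plus strand) for Pdzk1ip1.
Lyl1: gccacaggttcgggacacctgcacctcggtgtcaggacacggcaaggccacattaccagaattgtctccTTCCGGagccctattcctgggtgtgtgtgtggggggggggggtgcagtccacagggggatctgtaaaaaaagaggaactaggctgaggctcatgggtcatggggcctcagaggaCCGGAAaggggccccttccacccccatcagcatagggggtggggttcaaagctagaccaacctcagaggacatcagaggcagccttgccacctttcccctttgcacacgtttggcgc
Hlf: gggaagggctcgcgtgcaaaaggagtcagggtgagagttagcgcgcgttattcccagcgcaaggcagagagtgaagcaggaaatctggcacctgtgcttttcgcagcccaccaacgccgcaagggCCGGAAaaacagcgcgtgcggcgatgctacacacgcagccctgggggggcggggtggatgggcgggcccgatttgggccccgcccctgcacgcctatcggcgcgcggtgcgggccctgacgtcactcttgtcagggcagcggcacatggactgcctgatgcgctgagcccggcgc
Tal1: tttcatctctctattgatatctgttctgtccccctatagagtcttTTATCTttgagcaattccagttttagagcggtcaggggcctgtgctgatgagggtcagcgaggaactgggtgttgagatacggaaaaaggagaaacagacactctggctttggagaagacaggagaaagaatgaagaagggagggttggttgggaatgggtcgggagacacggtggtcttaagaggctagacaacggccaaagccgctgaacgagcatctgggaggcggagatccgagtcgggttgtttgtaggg
Pdzk1ip1: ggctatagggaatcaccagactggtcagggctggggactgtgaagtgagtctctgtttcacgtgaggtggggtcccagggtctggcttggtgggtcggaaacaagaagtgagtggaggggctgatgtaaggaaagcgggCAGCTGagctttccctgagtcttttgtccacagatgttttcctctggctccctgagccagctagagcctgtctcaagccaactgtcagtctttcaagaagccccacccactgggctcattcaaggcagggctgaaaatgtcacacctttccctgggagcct

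In Lyl1 the ETS letters begin at positions -181 (as TTCCGG, the other strand) and -67 from the start site, and in Hlf at position -125. The GATA letters AGATAA lie on the other strand of the Tal1 window, as TTATCT, at position -205. Pdzk1ip1 holds the E-box CAGCTG, a letter pattern that Tal1 with its partners can bind, at position -111. The promoter table held 27 of the 30 members, without Ikzf2, Lmo2 and Tgm2, in 35 windows. CCGGAA on either strand was found in 5 of these 35 windows, those of Gata3, Hlf, Lyl1, Runx1 and Txnip, a share of 14.3% against 14.9% of all 32851 promoter windows. AGATAA was found in 1 window (2.86%, against 11.2% of all) and CAGCTG in 8 (22.9%, against 16.3%). The 3 motifs of 6 letters do not contain one another, and a match says only that the letters are there.

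Levels below are log2 signals relative to the array's 75th percentile, so a value of 0 is the signal of that percentile, and levels of different probes are not compared. Among all 8 arrays the 75th percentile of the signal lay between 136 and 301 and 47.7% to 55.5% of probes were marked well above background, the scanner software's flag for a measurable signal. All arrays were on 1 slide, with KSL samples on slide row 1 and Gr samples on row 2, so cell type and slide row cannot be told apart. Etv2 itself read 0.19 and -1.24 in Vav-Etv2 KSL cells and was not well above background in control KSL cells (at least 12.4-fold higher with the transgene, limma adjusted p = 0.460). In Gr cells it read -0.55 and -1.30 in the Vav-Etv2 arrays, against -4.48 (not well above background) and -0.55 (well above) in the control arrays, so the second goes against its label. The sort markers of KSL cells were present, with Kit at 3.45 and 4.32 in Vav-Etv2 KSL cells and 5.15 in both control KSL arrays, but Ly6a, which encodes Sca-1, was higher in Gr cells (4.47 to 6.33) than in KSL cells (2.25 to 3.65).

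Several marker lists of other cell types set single arrays apart. Vav-Etv2 KSL replicate 1 had an endothelial list median of 3.29, against -1.15 in replicate 2 and -2.0 and -1.93 in control KSL cells, and a summed linear level of 51.7, against 4.50 in replicate 2 and 5.29 and 4.99 in control KSL cells. Its granulocyte median was 2.70, against 6.91 in replicate 2 and 6.61 and 6.74 in control KSL cells (sums 658 and 2223, against 2105 and 2007). Mpo and Ctsg were not low on that array, at 8.69 and 6.82. In control KSL cells Mpo read 8.67 and 8.63 and Ctsg 6.61 and 6.74. The other measured granulocyte markers were below both control KSL arrays there. All 11 measured granulocyte markers were well above background on every KSL array, and S100a8, a neutrophil calcium-binding protein, reached 8.29 and 8.24 in control KSL cells. B lineage medians were 2.14 and 2.77 in Vav-Etv2 KSL cells, against 0.08 and -0.19 in control KSL cells (sums 114 and 146, against 38.4 and 39.1). In Gr cells the mast and basophil median was -1.15 and 1.89 in Vav-Etv2 replicates 1 and 2, against -0.44 and 2.47 in control replicates 1 and 2. Its summed level ran the other way within each group, at 286 and 124 in Vav-Etv2 Gr cells, against 527 and 180 in control Gr cells. Vav-Etv2 KSL replicate 1 also had the highest megakaryocyte median of the KSL arrays, at 3.20, against 1.51 in replicate 2 and 0.81 and 0.98 in control KSL cells (sums 140 and 37.4, against 61.8 and 74.2). Its eosinophil median was the lowest, at -2.18, against 0.89 in replicate 2 and -0.37 and -0.71 in control KSL cells (sums 0.537 and 17.6, against 6.24 and 6.37). Over the 7 lists not plotted here, the median difference of Vav-Etv2 minus control KSL cells lay between -0.90 (erythroid) and 0.92 (monocyte and macrophage). None of the markers passed the limma threshold between Vav-Etv2 and control arrays. In sorted bulk RNA, fewer cells of a kind and less RNA per cell cannot be told apart, and the part of these lists in the differences below was not tested.

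**Figure D1:**
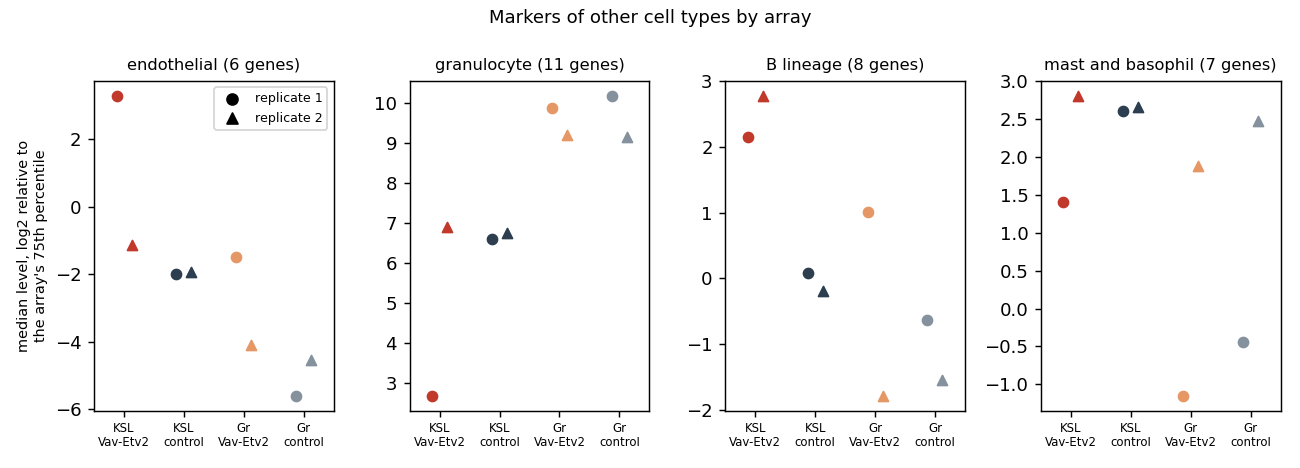
Median level of 4 marker lists of other cell types on each of the 8 arrays (vertical axes, log2 relative to the array's 75th percentile, separate scales), with circles for replicate 1 and triangles for replicate 2. Vav-Etv2 KSL replicate 1 stands apart in the endothelial (3.29) and granulocyte (2.70) lists, and the replicate 2 arrays of both Gr groups are high in the mast and basophil list (1.89 and 2.47).

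The first comparison is Vav-Etv2 against control KSL cells. Most of the 30 genes had lower signals in Vav-Etv2 KSL cells, with Hlf (log2 difference -3.03), Trpc6 (-2.83), Nupr1 (-2.35), Prdm16 (-2.34) and Sult1a1 (-2.01) the lowest, while Lyl1 (0.23), Bmi1 (0.62) and Hhex (0.31) were somewhat higher. None of the differences passed the threshold, a Benjamini-Hochberg adjusted p under 0.05 over all features in limma: 0 of 30 members were called, where 0.0172% of all features were. The smallest adjusted p among members was 0.157, for Sult1a1. Without adjustment, 8 members had p under 0.05 and all 8 were lower (4.21% of all features were lower at that level), and 0 were higher (3.21%). In all, 24 of 30 differences were below 0, against 49.7% of all features, and their median was -0.67, against 0.00 for all features. The members were chosen with earlier results of these data known, so these shares describe the list and do not test it.

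Both Vav-Etv2 arrays shared that direction to different degrees. Measured from the control mean, the members' median was -0.95 in Vav-Etv2 replicate 1 and -0.62 in replicate 2. Without replicate 1, the array with high endothelial markers, 25 of 30 differences were below 0, and without replicate 2, 20 were. Groups that do not overlap were common among all features: 16 members had both Vav-Etv2 arrays below both controls (25.5% of all features) and 3 had both above (26.1%). The median gap between the 2 arrays of a group was 0.58 log2 over the members in Vav-Etv2 KSL cells and 0.15 in control KSL cells.

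**Figure D2:**
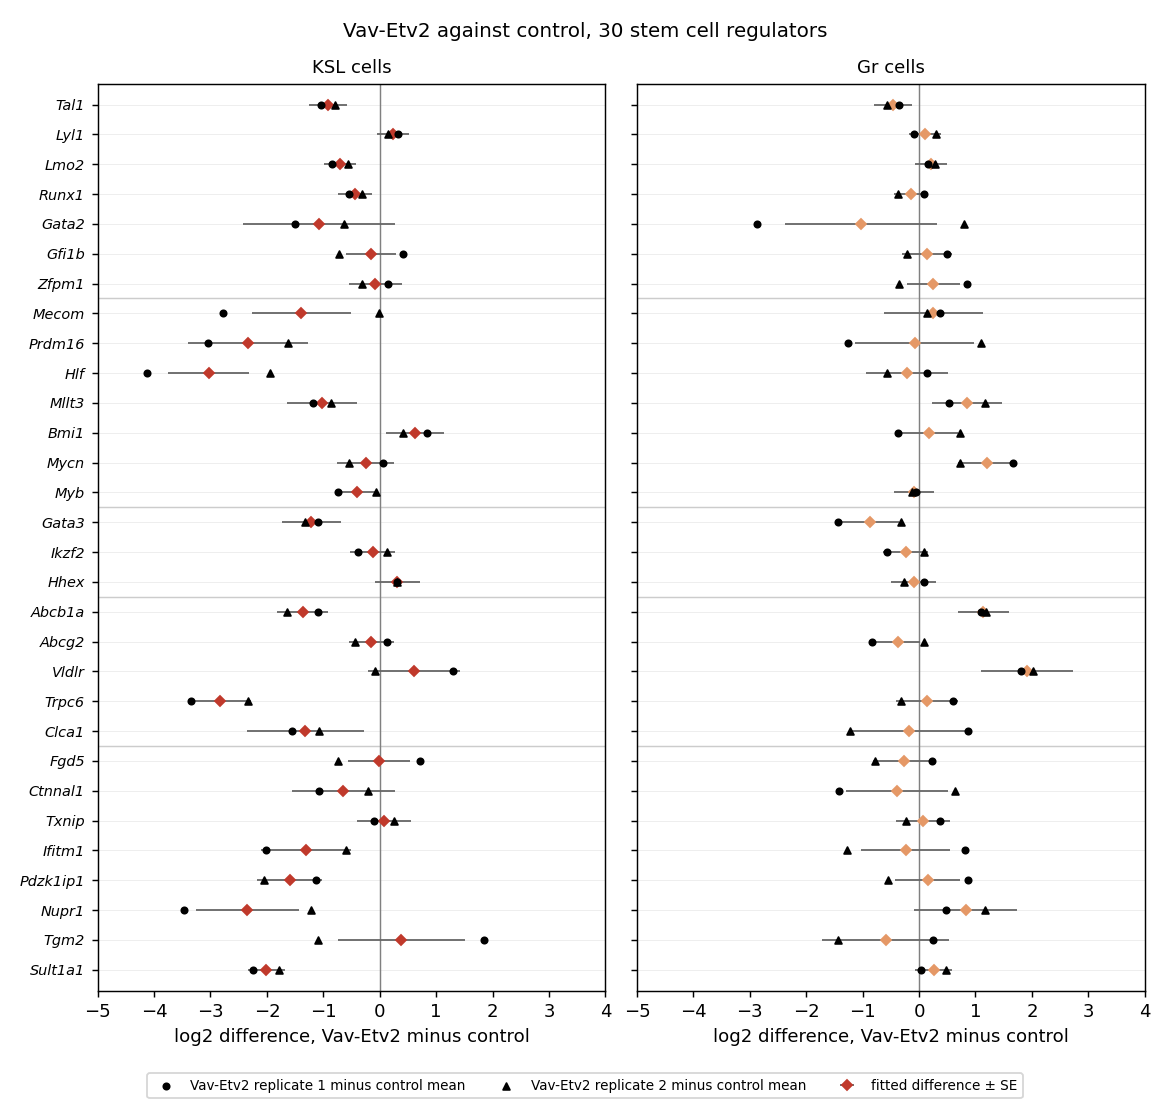
Log2 difference of Vav-Etv2 minus control for each of the 30 genes (horizontal axes) in KSL cells (left) and Gr cells (right), with diamonds and bars for the fitted difference and its SE and black points for each Vav-Etv2 replicate minus the control mean. In KSL cells 24 diamonds lie below 0 and in Gr cells 15 do.

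Among the shared network factors, Tal1 was lower in Vav-Etv2 KSL cells and Lyl1, its close relative, was not. Tal1 (probe at chr4:114744219-114744278, build mm9 as for all probes) encodes the basic helix-loop-helix factor needed to form blood stem cells. It read 2.81 and 3.08 in Vav-Etv2 KSL cells, against 3.87 and 3.85 in control KSL cells. The groups did not overlap, and the difference of -0.92 (SE 0.34) had a limma adjusted p of 0.617. Lyl1 (chr8:87228531-87228590), which can stand in for Tal1 in adult stem cells, read 6.61 and 6.45 in Vav-Etv2 KSL cells, against 6.34 and 6.26 in control KSL cells. Its difference of 0.23 had a 95% interval from -0.44 to 0.90, that of Tal1 from -1.73 to -0.10, and the difference between the 2 genes was not tested.

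The bridge and partner proteins varied more. Lmo2 (chr2:103821857-103821916), the LIM protein that joins Tal1 to GATA factors, read 5.64 and 5.93 in Vav-Etv2 KSL cells, against 6.54 and 6.43 in control KSL cells. Both Vav-Etv2 values were below both controls (difference -0.70, SE 0.29, limma adjusted p = 0.663). Runx1 (chr16:92605785-92605844), required for the birth of blood stem cells from endothelium, read 2.47 and 2.71, against 3.12 and 2.93 in control KSL cells. Its difference was -0.43, but a second Runx1 probe gave 0.11. Gata2 (chr6:88156362-88156421), the GATA factor of stem and mast cells, read 2.06 and 2.93 in Vav-Etv2 KSL cells, against 3.58 and 3.55 in control KSL cells. Gfi1b, a repressor of stem cells and of erythroid and platelet precursors, and Zfpm1, which encodes the GATA cofactor FOG-1, had differences of -0.15 and -0.08. Their Vav-Etv2 arrays lay on both sides of the controls: Gfi1b read 3.79 and 2.66 in Vav-Etv2 KSL cells and 3.37 and 3.39 in control KSL cells.

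The self-renewal factors included Hlf, the member with the lowest difference, and had a median of -1.02. Hlf (chr11:90200696-90200755), a PAR bZIP factor restricted in blood mainly to stem cells, read 0.45 and 2.64 in Vav-Etv2 KSL cells, against 4.63 and 4.53 in control KSL cells. Both Vav-Etv2 arrays were far below the controls, replicate 1 by more, at a difference of -3.03 (SE 0.73, limma adjusted p = 0.319) with a 95% interval from -4.76 to -1.31. Prdm16 (chr4:153690254-153690313), a zinc finger regulator of stem cell maintenance, read -3.51 and -2.11, against -0.60 and -0.35 in control KSL cells, a difference of -2.34 (SE 1.06, limma adjusted p = 0.734). Mllt3 (chr4:87418870-87418929), a reader of histone acylation in the super elongation complex, read -0.93 and -0.60, against 0.13 and 0.38 in control KSL cells. These 3 genes did not overlap between the groups, both Vav-Etv2 arrays lying below both controls in each.

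Mecom, the zinc finger factor formerly called Evi1, was near the limit of measurement. Its probe (chr3:30135491-30135550) read -6.05 (not well above background) and -3.29 in Vav-Etv2 KSL cells, against -2.71 and -3.84 in control KSL cells. Replicate 2 lay between the controls and replicate 1 below them (difference -1.39, SE 0.88, limma adjusted p = 0.913), and the second Mecom probe gave -1.89 with neither Vav-Etv2 array well above background. Without replicate 1 the Mecom difference was -0.01. Bmi1 (chr2:18607531-18607590), a Polycomb protein that represses the Ink4a/Arf locus, stood apart by direction. It read 2.94 and 2.52 in Vav-Etv2 KSL cells, both above the 1.96 and 2.25 of control KSL cells, and its second probe also gave a positive difference (0.62 and 0.31, limma adjusted p = 0.983 for the first). Mycn, a Myc family factor active in stem cells, had a difference of -0.25, and Myb, the factor needed for definitive blood formation, had -0.40, each with overlapping groups.

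Of the 3 lineage-linked factors, Gata3, the GATA factor of T cells that is also present in stem cells, was lower. It (chr2:9779551-9779610) read -0.18 and -0.40 in Vav-Etv2 KSL cells, against 0.96 and 0.88 in control KSL cells (difference -1.21, SE 0.52, limma adjusted p = 0.706). Ikzf2, which encodes Helios, overlapped between the groups on its first probe (-0.12). Its second probe read 0.19 and 0.14 in Vav-Etv2 KSL cells, against 0.54 and 0.60 in control KSL cells, without overlap (difference -0.40). Hhex (chr19:37514969-37515028), a homeobox factor of early blood and vessel cells, read 3.87 and 3.88 in Vav-Etv2 KSL cells, against 3.56 and 3.57 in control KSL cells. The 95% interval of the Hhex difference ran from -0.63 to 1.26.

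Transporters, channels and receptors differed from one another. Trpc6 (chr9:8680682-8680741), a cation channel opened by diacylglycerol, read -2.06 and -1.05 in Vav-Etv2 KSL cells, against 1.10 and 1.45 in control KSL cells. The difference was -2.83 (SE 0.56, limma adjusted p = 0.220). Abcb1a (chr5:8748075-8748134), the P-glycoprotein drug pump, read -3.88 and -4.44 (not well above background), against -2.59 and -3.0 in control KSL cells. Its difference was -1.37 (SE 0.45, limma adjusted p = 0.546), and -0.29 with a model-based background correction. Abcg2, the efflux pump behind the side population of stem cells, read 3.14 and 2.56 in Vav-Etv2 KSL cells and 2.89 and 3.11 in control KSL cells, so the groups overlapped. Its difference of -0.15 had a 95% interval from -1.10 to 0.79. Vldlr, a lipoprotein receptor, read 3.54 and 2.17, against 2.29 and 2.22 in control KSL cells, a difference of 0.61 that was -0.08 without replicate 1. Its second probe read -0.61 and -2.81 in Vav-Etv2 KSL cells, against -2.97 and -3.68 in control KSL cells, with both Vav-Etv2 arrays above both controls (difference 1.62).

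The gene called Clca1 in the files, a calcium-activated chloride channel regulator, is measured by a probe for the transcript that RefSeq now names Clca3a1. It (chr3:144393450-144393509) read -1.22 and -0.75 in Vav-Etv2 KSL cells, against 0.08 and 0.58 in control KSL cells (difference -1.32, SE 1.04, limma adjusted p = 0.978). The SE also carries the Gr arrays. Standard deviations were 1.48 in Vav-Etv2 Gr and 2.12 in control Gr cells, against 0.34 and 0.35 in Vav-Etv2 and control KSL cells. The probe for the transcript now named Clca1 was not well above background on any array.

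The remaining stem cell enriched genes included the member with the smallest adjusted p. Sult1a1 (chr7:133816605-133816664), a phenol sulfotransferase, read -1.52 and -1.06 in Vav-Etv2 KSL cells, against 0.73 and 0.72 in control KSL cells. Both arrays were lower by a similar amount, at a difference of -2.01 (SE 0.33, limma adjusted p = 0.157) and a 95% interval from -2.80 to -1.23, and its second probe gave -2.28. Nupr1 (chr7:133766978-133767037), a small stress-response nuclear protein, read -3.05 and -0.80, against 0.42 in both control KSL arrays (difference -2.35, SE 0.92, limma adjusted p = 0.637). Pdzk1ip1 (chr4:114766409-114766468), also called MAP17, read 2.56 and 1.64, against 3.64 and 3.74 in control KSL cells, and both of its probes gave about the same difference (-1.59 and -1.54, limma adjusted p = 0.595 for the first). Here replicate 2 was the lower array, unlike in Hlf, Trpc6 and Nupr1.

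Of the other genes of this kind, Ifitm1 and Ctnnal1 were lower on both Vav-Etv2 arrays, and the groups overlapped in Fgd5, Tgm2 and the first Txnip probe. Ifitm1, an interferon-induced membrane protein, read 3.37 and 4.80 in Vav-Etv2 KSL cells, against 5.39 and 5.40 in control KSL cells (difference -1.31, limma adjusted p = 0.893). Ctnnal1, an alpha-catulin, had a difference of -0.65 with groups that did not overlap. Fgd5, a guanine exchange factor used as a stem cell reporter locus, read -2.64 and -4.09 (the second not well above background), against -3.46 and -3.25 in control KSL cells, a difference of -0.01. Txnip, an inhibitor of thioredoxin, had 0.08 with a 95% interval from -1.06 to 1.22. Its second probe read 1.21 and 0.84 in Vav-Etv2 KSL cells, against 0.50 and 0.31 in control KSL cells, without overlap (difference 0.62). Tgm2, tissue transglutaminase, read 4.17 and 1.22, against 2.39 and 2.23 in control KSL cells. Its Vav-Etv2 arrays lay on either side of the controls, and without replicate 1 the difference was -1.09.

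**Figure D3:**
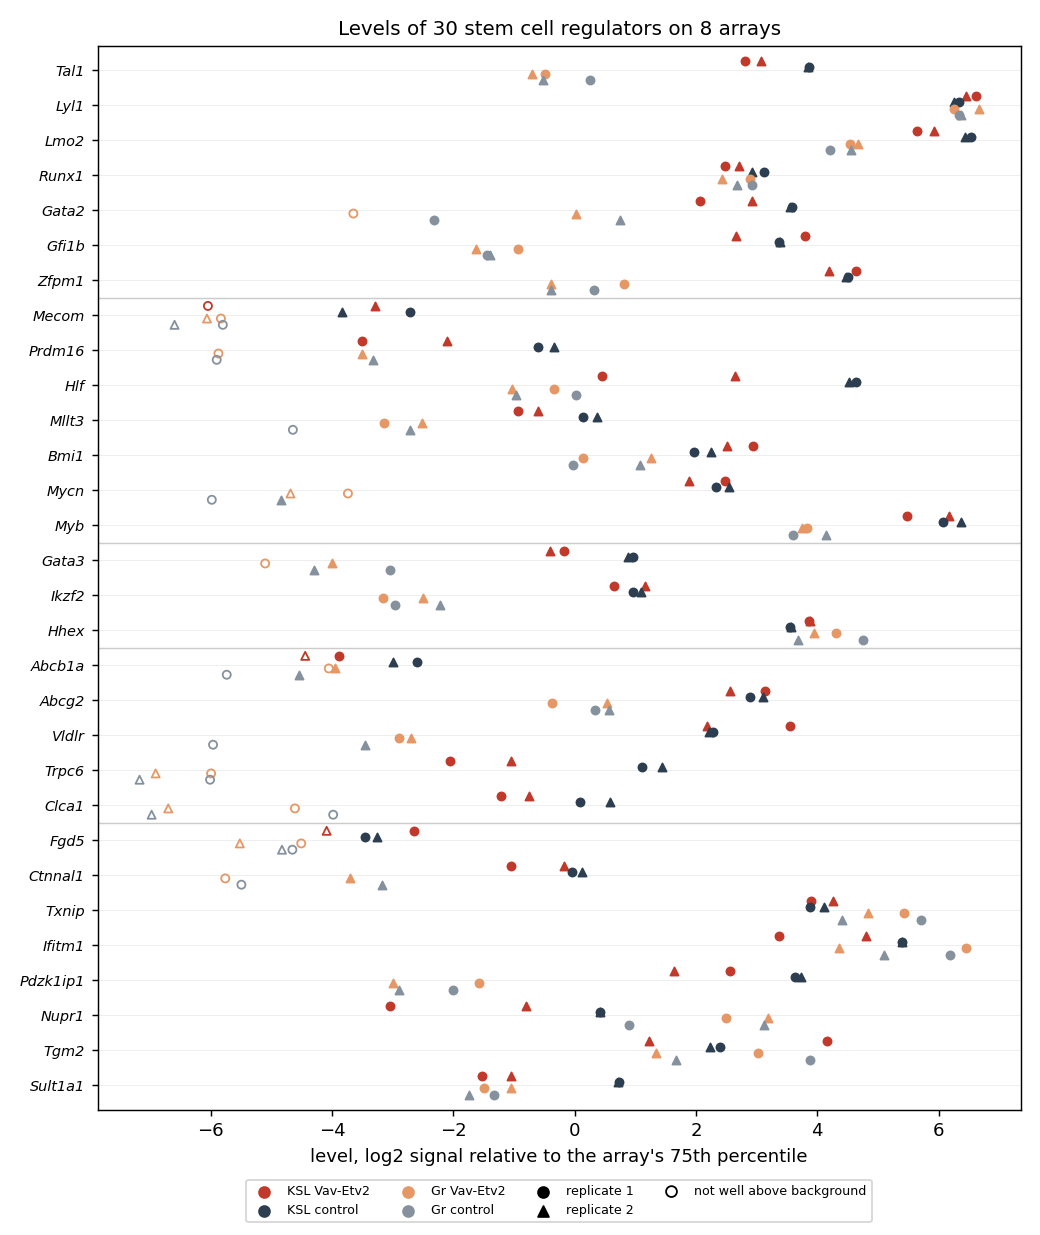
Level of each of the 30 genes on each of the 8 arrays (horizontal axis, log2 signal relative to the array's 75th percentile), coloured by group, with circles for replicate 1, triangles for replicate 2, and open symbols where the signal was not well above background. Control KSL replicates lie close together for most genes, such as Hlf at 4.63 and 4.53, while Gr replicates are often apart, such as Gata2 at -2.31 and 0.75 in control Gr cells.

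In the next comparison, Vav-Etv2 against control Gr cells, the 30 genes showed no shared direction. In limma 0 members were called (0.00861% of all features were), and at an unadjusted p under 0.05 1 was higher, Abcb1a (0.603% of all features), and 0 were lower (0.672%). Differences were above 0 in 15 members and below 0 in 15 (51.5% of all features), with a median of -0.00, against -0.01 for all features. Groups did not overlap in 3 members, all higher (5.84% of all features), Abcb1a, Mycn and Vldlr, and in 0 members lower (5.79%). Abcb1a read -4.05 (not well above background) and -3.96 in Vav-Etv2 Gr cells, against -5.74 (not well above background) and -4.55 in control Gr cells (difference 1.14, SE 0.45, limma adjusted p = 1.00), and its difference was 0.13 with the model-based background correction. Vldlr read -2.90 and -2.70, against -5.96 (not well above background) and -3.47 in control Gr cells (difference 1.91, SE 0.82, limma adjusted p = 1.00). Its second probe gave 0.13 but was not well above background on any Gr array, so it cannot speak for or against the first. Neither Vav-Etv2 Gr array measured Mycn above background.

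Abundant members of the network were nearly level in Gr cells. Lyl1 read 6.26 and 6.66 in Vav-Etv2 Gr cells, against 6.33 and 6.37 in control Gr cells. Lmo2 read 4.53 and 4.67, against 4.20 and 4.56 in control Gr cells, and Myb read 3.83 and 3.75, against 3.6 and 4.15. The 95% intervals of these differences ran from -0.56 to 0.77 for Lyl1, from -0.46 to 0.90 for Lmo2 and from -0.94 to 0.77 for Myb. The array labelled control Gr replicate 2 carried an Etv2 signal, so every Gr difference stands under that label.

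The difference between the KSL and the Gr effect was tested in the same model. No member passed in limma (0 of 30, against 0.0043% of all features), and 5 had an unadjusted p under 0.05, all with the lower effect in KSL cells (2.42% of all features), Abcb1a, Hlf, Nupr1, Sult1a1 and Trpc6, and 0 with the higher (1.48%). The difference of effects was below 0 in 22 of 30 members (50.1% of all features). Sult1a1 had a difference of effects of -2.28 (SE 0.46, limma adjusted p = 0.951) and Trpc6 one of -2.97 (SE 0.79, limma adjusted p = 1.00). For Tal1 the value was -0.45, with a 95% interval from -1.61 to 0.70. No single member was thus shown to respond differently in the 2 cell types.

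Control KSL against control Gr cells showed most of the 30 genes far higher in KSL cells. In limma 21 of 30 members were higher (16.3% of all features) and 0 were lower (18.5%), with a median difference of 3.27, against -0.13 for all features. By role, 5 of 7 network factors, 6 of 7 self-renewal factors, 2 of 3 lineage-linked factors, 5 of 5 transporters, channels and receptors and 3 of 8 other genes were called. Among them Tal1 was higher by 4.00 (SE 0.34, limma adjusted p = 0.00113), at 3.87 and 3.85 in control KSL cells, against 0.25 and -0.52 in control Gr cells. Hlf was higher by 5.06 (SE 0.73, limma adjusted p = 0.00446) and Pdzk1ip1 by 6.13 (SE 0.58, limma adjusted p = 0.00149).

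Some were not measurable in control Gr cells at all. Trpc6 was at least 50-fold higher in control KSL cells (limma adjusted p = 7.91e-04), Clca1 at least 26.0-fold (0.00850) and Mecom at least 2.13-fold (0.0417), each with neither control Gr array well above background. None of these genes was well above background on a Vav-Etv2 Gr array either. They passed the filter, a signal on at least 2 of 8 arrays, only through the KSL cells in which they were high. Their calls are no independent support for that difference. With the model-based background correction the differences were 3.35 log2 for Trpc6 and 2.23 for Clca1, smaller than those bounds, and both kept the call. A fold marked "at least" compares with, on each array, the higher of the lowest well-above-background signal and the gene's own signal. Mycn read 2.33 and 2.54 in control KSL cells, against -5.98 (not well above background) and -4.83 in control Gr cells, a difference of 7.84 (SE 0.51, limma adjusted p = 7.11e-04), and of 4.28 with the model-based correction.

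A group of 9 members was not called in this comparison. Lyl1 was level, at 6.34 and 6.26 in control KSL cells and 6.33 and 6.37 in control Gr cells, with a 95% interval of the difference from -0.72 to 0.61. Runx1 differed by 0.22 (interval from -0.50 to 0.95). Within the helix-loop-helix pair, then, Tal1 was called between the cell types and Lyl1 was not, though the gap between the 2 was not itself tested. Bmi1 had a difference of 1.58 (limma adjusted p = 0.0522), and Fgd5, at least 1.94-fold higher in control KSL cells, had a limma adjusted p of 0.0894. The second Bmi1 probe, tested with every probe by itself, was called higher in control KSL cells (1.83, limma adjusted p = 0.0290). The first was also called under some alternatives, quantile normalization among them. Values below 0 belonged to Nupr1 (-1.60), Txnip (-1.06), Hhex (-0.66), Tgm2 (-0.46), Ifitm1 (-0.25) and Lyl1 (-0.05), with limma adjusted p from 0.125 to 0.894. The second Txnip probe, tested with every probe by itself, was called lower in control KSL cells (-1.91, limma adjusted p = 0.0361).

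Leaving out 1 array at a time moved the count of members called between 15 and 23, and 15 of the 21 were called every time. Without control Gr replicate 2, 23 were called, 2 of them, Hhex and Txnip, as lower in control KSL cells. Mecom lost the call without any 1 of 6 arrays, among them both of each control group. Without control Gr replicate 1, Gata2, Prdm16 and Ctnnal1 lost it too (limma adjusted p = 0.218, 0.117 and 0.0572). Without control KSL replicate 1 these 3 and Abcb1a lost it, and without control KSL replicate 2 Clca1 as well. Gata2 also lost it without either Vav-Etv2 KSL array (limma adjusted p = 0.0642). Mecom and Abcb1a also lost it under the model-based background correction, at 0.34 and 0.36 log2. With median scaling (limma adjusted p = 0.0503) and with no filter (0.0660) Gata2 lost it too. Mecom further lost it with dim signals raised (limma adjusted p = 0.209), no filter (0.0635) and a replicate block (0.0528). The second Mecom probe, tested with every probe by itself, was not called (2.06, limma adjusted p = 0.101).

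**Figure D4:**
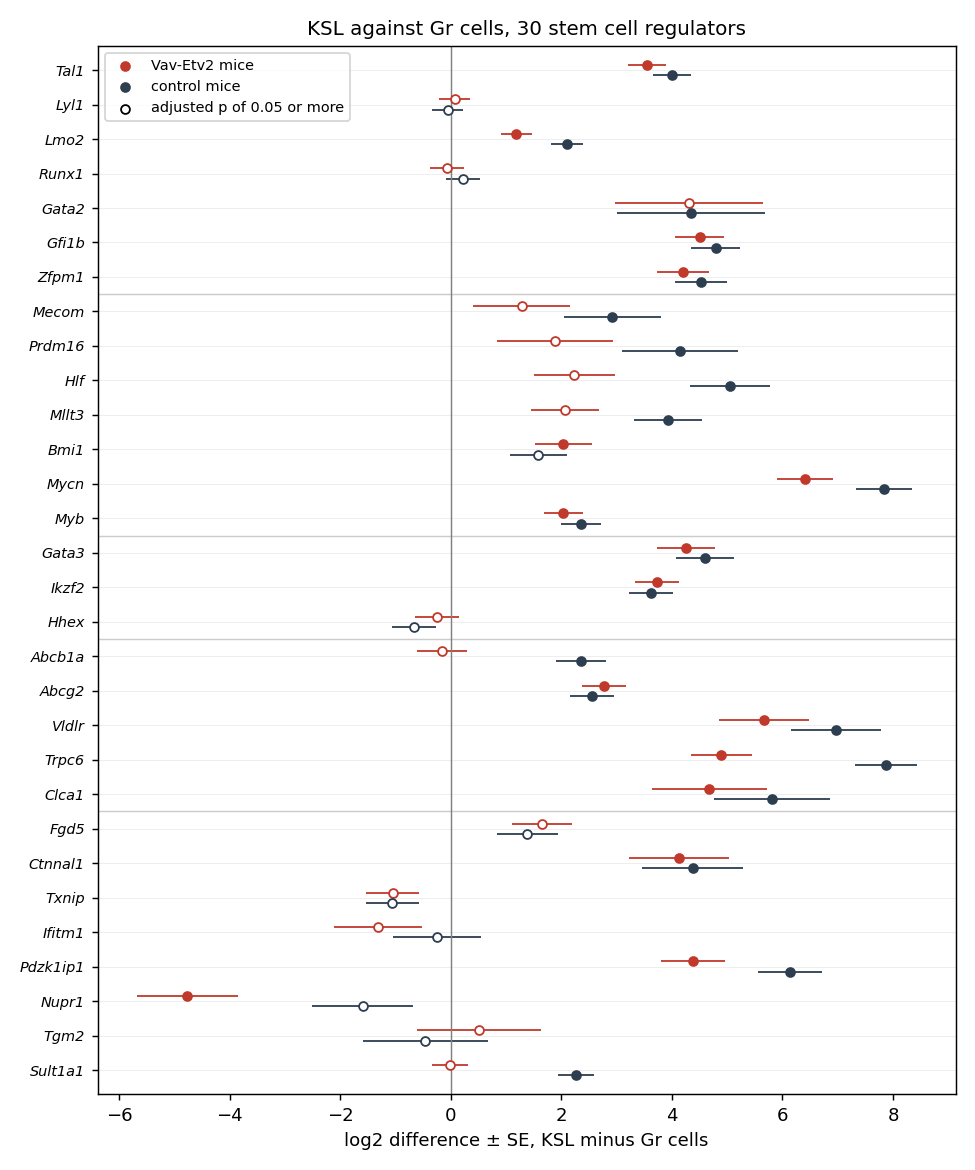
Log2 difference of KSL minus Gr cells for each of the 30 genes (horizontal axis) with SE bars, in Vav-Etv2 mice (upper symbol of each pair) and control mice (lower symbol), filled where the limma adjusted p was under 0.05. Filled symbols number 16 in Vav-Etv2 mice, 15 of them above 0, and 21 in control mice, all above 0.

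In Vav-Etv2 mice 15 members were higher in KSL than in Gr cells (10.5% of all features) and 1, Nupr1, was lower (13.8%), with a median difference of 2.05. Calls in control mice and not here were those of Gata2, Mecom, Prdm16, Hlf, Mllt3, Abcb1a and Sult1a1, and Bmi1 (2.03, limma adjusted p = 0.0317) and Nupr1 were called here and not in controls. The second Bmi1 probe, tested with every probe by itself, was called in both genotypes. Nupr1 read -3.05 and -0.80 in Vav-Etv2 KSL cells, against 2.50 and 3.19 in Vav-Etv2 Gr cells (difference -4.77, SE 0.92, limma adjusted p = 0.0131). Sult1a1 was level, at -1.52 and -1.06 in Vav-Etv2 KSL cells and -1.49 and -1.05 in Vav-Etv2 Gr cells. Against Vav-Etv2 Gr cells, in which none of the 3 was well above background, Mycn was at least 84.5-fold, Clca1 at least 9.58-fold and Trpc6 at least 6.45-fold higher. With the model-based background correction the differences were 3.91 log2 for Mycn, 1.29 for Clca1 and 1.17 for Trpc6, and Clca1 and Trpc6 lost the call (limma adjusted p = 0.0605 and 0.0808). Neither Clca1 nor Trpc6 was well above background on any Gr array, so both passed the filter through KSL arrays alone. A call in only 1 genotype does not show that the cell type difference changed, and the test of that is the difference of effects above, in which 0 members passed. Without Vav-Etv2 KSL replicate 1, 12 members were called and Nupr1 (limma adjusted p = 0.0593), Bmi1, Clca1, Ctnnal1 and Lmo2 were not, while Hlf was. Leaving out Vav-Etv2 KSL replicate 2 lost the call for Bmi1, Clca1, Ctnnal1, Lmo2 and Myb and added Fgd5. Leaving out Vav-Etv2 Gr replicate 1 lost it for Bmi1, Ctnnal1, Lmo2 and Nupr1. Without either control KSL array Lmo2 and Bmi1 lost the call (limma adjusted p = 0.0634 for Bmi1), and without Vav-Etv2 Gr replicate 2 Lmo2 and Clca1 did. Bmi1 and Lmo2 also lost it with median scaling (limma adjusted p = 0.0533 and 0.0861) and with no filter (0.0555 and 0.0729).

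Replicates of the Gr groups were far apart for some members. Gata2 read -3.65 (not well above background) and 0.02 in Vav-Etv2 Gr replicates 1 and 2, against -2.31 and 0.75 in control Gr replicates 1 and 2. In both groups the array numbered 2 was the high one, and so it was for Prdm16 (-5.87 and -3.51 in Vav-Etv2 Gr cells, against -5.90 and -3.33) and Ctnnal1 (-5.76 and -3.70 in Vav-Etv2 Gr cells, against -5.49 and -3.18), neither of them well above background on the arrays numbered 1. Cpa3, a mast cell protease, followed the same split, at -2.03 and 1.89 in Vav-Etv2 Gr cells, against -1.35 and 2.47 in control Gr cells. So did Mcpt8, Ms4a2, Fcer1a and Prss34 of the mast and basophil list, but Hdc and Gata1 did not. Hdc read 8.15 and 6.17 in Vav-Etv2 Gr cells, against 9.02 and 6.59 in control Gr cells. Gata1 read -0.07 and -0.94, against -0.44 and -0.55. Xist, the X-inactivation RNA of female cells, was higher on the Gr arrays numbered 1. It read 0.35 and -6.83 in Vav-Etv2 Gr cells, against 0.27 and -7.10 in control Gr cells, and 2.12 to 2.69 on the 4 KSL arrays. Y-linked Ddx3y read -5.81 and 1.36 in Vav-Etv2 Gr cells, against -4.05 and 1.38 in control Gr cells. It was not well above background on any KSL array. By these genes Gr replicates 1 and all KSL arrays were female and Gr replicates 2 male. Sex thus lay partly with cell type, and its part in the KSL against Gr differences was not tested. Whether any of these values bears on Gata2 was not tested. The gap between replicates exceeded 1 log2 unit in 10 members in Vav-Etv2 KSL cells and 1 in control KSL cells, and in 11 in Vav-Etv2 Gr cells and 16 in control Gr cells. The widest were Tgm2 (2.95), Mecom (1.13), Gata2 (3.67) and Gata2 (3.06), in that order of groups.

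For 11 members more than 1 probe could be compared. Their probes shared the sign of the difference in 10 of 11 for Vav-Etv2 against control KSL cells, with Runx1 the exception, and in 8 of 11 for Vav-Etv2 against control Gr cells. For KSL against Gr cells they did in 10 of 11 in Vav-Etv2 mice and in 11 of 11 in control mice.

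A list of 42 other genes of stem cell regulation, 40 of them tested, was set beside the members in Vav-Etv2 KSL cells. In limma 0 of 40 were called (0.0172% of all features), 5 had an unadjusted p under 0.05, all lower (4.21%), 27 were below 0 (49.7%) and the median was -0.27. Hoxb5, a homeobox gene of long-term stem cells, was not well above background in Vav-Etv2 KSL cells and at least 6.21-fold lower than in control KSL cells (limma adjusted p = 0.146). It passed the filter only through the control KSL arrays, in which it was high, so this value is no independent support for a difference. Cdkn1c, the cell cycle inhibitor p57, read -0.77 and -1.27, against 0.45 and 0.55 in control KSL cells (difference -1.52, limma adjusted p = 0.214). Procr, the endothelial protein C receptor used to enrich stem cells and named here after its values were seen, read -0.09 and 0.29, against 2.10 and 2.35 in control KSL cells (limma adjusted p = 0.431). Tek, the angiopoietin receptor shared with endothelium, read 1.91 and -1.06 in Vav-Etv2 KSL cells, against -2.03 and -1.91 in control KSL cells, and its high array was the one with high endothelial markers. Ldb1, the partner of Lmo2, had 0.44 (limma adjusted p = 0.968). Between control KSL and control Gr cells, 18 of the 40 were higher (16.3% of all features) and 4 lower (18.5%). The lower ones were Ets1, Fli1, Gfi1 and Spi1.

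Members also lay in neighbouring positions, noticed after their values were seen. The Tal1 and Pdzk1ip1 probes start 22190 bases apart on chromosome 4, with 1 annotated gene between them that was not measured here. Both genes were lower in Vav-Etv2 than in control KSL cells (-0.92 and -1.59) and higher in control KSL than in control Gr cells (4.00 and 6.13). The Nupr1 and Sult1a1 probes start 49627 bases apart on chromosome 7, and both had low signals in Vav-Etv2 KSL cells (-2.35 and -2.01). Sgf29, a subunit of the SAGA complex that lies between these, had a difference of -0.49 (limma adjusted p = 0.998). Between control KSL and control Gr cells that pair parted, with Nupr1 at -1.60 and Sult1a1 at 2.26 (limma adjusted p = 0.209 and 0.00463).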

How the data were processed

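RNA of 8 sorted samples was hybridised to 1-colour Agilent arrays. Per the file headers, the authors' files were made with Agilent Feature Extraction, version 10.7.3.1 there and 10.7 per the submitters' processing notes, on probe coordinates of build mm9. The processed signal, an intensity, is background-subtracted, per the file headers, and not scaled between arrays. The deposited mean and background intensity columns served 1 alternative. The deposited marks of 0 or 1 per spot (outlier, saturation, control, well above background) are other values used as filters. The deposited values of the whole series are on the log2 scale, centred per probe within cell type: 99.8% matched a recomputation to 0.01 log2, so they served only within a cell type.

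Spots marked non-uniform were removed, log2 signals averaged per probe, and the 75th percentile over non-control probes subtracted. Probes well above background on at least 2 of 8 arrays were kept, without regard to group, and each gene was represented by its brightest such probe on average, giving 23231 features. All 41 member probes passed. A limma 3.58.1 model (lmFit, eBayes; R 4.3.3, data.table, version 1.17.8) used all 8 arrays and a mean for each group, with 4 residual and 2.77 prior degrees of freedom. Intervals are 95% intervals of the fitted difference. The number of arrays limits the precision. The model was tested on simulated data. Alternatives were other background corrections, scalings, filters, probe choices, a replicate block and leaving out each array. All 30 members are named, and of the other pathway genes those past the threshold or with the 2 smallest p-values in each direction; any other is marked as such, and calls between cell types are given mainly as counts.

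Members, the pathway list and the 11 marker lists were chosen with earlier results of these data known. Whether a probe lies in coding sequence or a UTR was not determined here.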

Additional observations from a re-analysis of the deposited data

Results flagged for a closer look

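Abcb1a, the P-glycoprotein drug pump, differed in opposite directions in the 2 cell types, with groups that did not overlap in either. It was lower in Vav-Etv2 than in control KSL cells (-3.88 and -4.44, against -2.59 and -3.0) and higher in Vav-Etv2 than in control Gr cells (-4.05 and -3.96, against -5.74 and -4.55). The difference of the effects was -2.51 (SE 0.64) and did not pass the threshold (limma adjusted p = 1.00, unadjusted p = 0.00613). With a model-based background correction the 2 effects were -0.29 in KSL cells and 0.13 in Gr cells. Of the 8 arrays, Abcb1a was not well above background on 1 in Vav-Etv2 KSL cells, 1 in Vav-Etv2 Gr cells and 1 in control Gr cells.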

How the results depend on the processing

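In every alternative run, 0 members passed in the Vav-Etv2 comparisons in KSL cells, in Gr cells or in the difference of the effects. Counts over all features were less stable. In KSL cells the 4 features called became 16 with normexp background correction, 50 with quantile normalization, 27 with median scaling, 14 with dim signals raised and 0 with a filter on all 8 arrays, and 0 to 37 when 1 array was left out. In Gr cells the 2 called became 0 with normexp, the filter on all arrays, only the Gr arrays or a replicate block over all arrays, and 1 with no filter, every probe by itself, an intensity trend or a replicate block within each cell type (0 to 2 with 1 array left out). For the difference of the effects the 1 called became 4 with normexp or dim signals raised, 5 with quantile normalization, 2 with median scaling and 0 with no filter, the filter on all arrays, an intensity trend or either replicate block, and 0 with any 1 array left out.

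Requiring a signal on all 8 arrays left 18 members tested, of which 11 were called between control KSL and control Gr cells, 10 between Vav-Etv2 KSL and Vav-Etv2 Gr cells and 13 lay below 0 in Vav-Etv2 against control KSL cells. With 1 array left out, members called ranged from 15 to 23 in the control comparison of cell types (2199 to 9391 features) and from 12 to 18 in the Vav-Etv2 one (2244 to 7293 features). Members below 0 in KSL cells, an alternative added after seeing the data, ranged from 20 to 25 and their median from -0.95 to -0.62. Signs turned in 2 cases, both without Vav-Etv2 KSL replicate 1: Vldlr (-0.077, and 1.29 without replicate 2) and Tgm2 (-1.09, and 1.86 without replicate 2). The cause of these shifts was not tested.

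Same-numbered replicates of KSL groups deviated together weakly (correlation 0.068 over features) and those of Gr groups more strongly (0.658), but 2 pairs are too few to take the numbers as a pairing. With a replicate block the control cell type comparison called 21 members (20 of them shared, Mecom lost and Bmi1 gained) and the Vav-Etv2 one 19 (16 shared, Fgd5, Gata2 and Mllt3 gained). The KSL comparison again called 4 features. Depth of signal limits Mecom, Abcb1a, Fgd5 and the Gr values of Trpc6, Clca1 and Mycn, which were near or below background.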
